A study of Homo sapiens with 10 samples.

Results

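RASD1, RASD2, RRAD, GEM, RHOB, RND1, RND3 and DIRAS3 encode small GTPases or close relatives of them, and these 8 of the 28090 named genes on a whole-genome expression array were followed here in PC-3, a line of human prostate cancer cells grown from a bone metastasis. They were chosen by gene name, as every non-control probe that carries one of the 8 names, and RASD1 was put first because its signal was already known to be high in drug-treated cells and to depart from the sum of both drugs. The values of RASD1 against the controls and its departure from additivity are therefore descriptions and carry no test. Single-color Agilent arrays, 2 in each of 5 groups, measured PC-3 RNA from untreated cells at 0 h and from cells kept for 24 h with DMSO alone, with luteolin or gefitinib at 60 µM, or with the 2 drugs together at 60 µM each. DMSO was the solvent of both drugs. Luteolin is a plant flavone, and gefitinib inhibits the tyrosine kinase of the EGF receptor. All groups share one cell line and one medium with fetal bovine serum, so the drugs were seen in a single model without normal cells. The labels call the 2 arrays of a group biological replicates and the design text calls them duplicates, and neither says that they came from separate cultures, so the p-values measure the spread between these arrays, which may be technical.

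The labels and the names of the scanner files give different treatments for all 6 drug-treated arrays. The arrays labelled luteolin have files named for gefitinib, those labelled gefitinib have files named for both drugs, and those labelled with both drugs have files named for luteolin. The groups are called luteolin-labelled, gefitinib-labelled and combination-labelled below, and values with the treatments of the file names are given for the comparisons among the drugs where a direction or a call changes. Which of them is right was not tested.

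Ras-type GTPases switch between a form bound to GTP, in which they bind effectors, and a form bound to GDP. The genes followed here are mostly unusual members of that superfamily, in that their activity is set largely by how much protein the cell makes and by where it sits. RASD1 was found as a dexamethasone-induced Ras protein and acts on heterotrimeric G protein signaling, and RASD2, known as Rhes, is its closest relative. RRAD and GEM belong to the RGK family, which binds the beta subunits of voltage-gated calcium channels and lowers channel activity. RHOB is an endosomal relative of RHOA whose gene is switched on early after growth factors and DNA damage. RND1 and RND3 bind GTP without hydrolysing it and oppose RHOA, and DIRAS3 is an imprinted, growth-inhibiting Ras relative.

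The stretches of 250 bases before the transcription start are shown for RASD1, RHOB and RND3. RASD1 and RHOB are set beside each other because both had their highest mean level, defined below, under the gefitinib label. RND3 had its highest under the combination label. In RHOB, unlike in RASD1, the luteolin- and combination-labelled arrays overlapped in level. The stretches were taken from RefSeq annotation of build GRCh38.p14, in which 5 of the 8 genes had an entry. Each is written 5′ to 3′ along the gene. RASD1 lies on the minus strand of chromosome 17 with the stretch at chr17:17496396-17496645, RHOB on the plus strand of chromosome 2 at chr2:20446824-20447073, and RND3 on the minus strand of chromosome 2 at chr2:150487696-150487945. Capitals mark exact matches, on either strand, to any of 8 motifs, namely the core promoter motifs spelled TATAAA, bound by the general transcription machinery, and CCAAT, bound by nuclear factor Y, with GGGCGG, the usual binding letters of SP1. The others were TGACGTCA, the response element for cyclic AMP, and its first part read alone, TGACG, which also lies within it, then TGACTCA, the letters of AP-1 proteins such as FOS and JUN, and CACGTG, known as the E-box, beside the palindromic glucocorticoid response element.
RASD1: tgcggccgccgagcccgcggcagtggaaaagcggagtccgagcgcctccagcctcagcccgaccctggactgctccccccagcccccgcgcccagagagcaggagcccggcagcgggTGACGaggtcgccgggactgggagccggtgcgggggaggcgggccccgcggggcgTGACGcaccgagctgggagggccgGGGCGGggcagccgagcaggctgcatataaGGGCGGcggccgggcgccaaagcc
RHOB: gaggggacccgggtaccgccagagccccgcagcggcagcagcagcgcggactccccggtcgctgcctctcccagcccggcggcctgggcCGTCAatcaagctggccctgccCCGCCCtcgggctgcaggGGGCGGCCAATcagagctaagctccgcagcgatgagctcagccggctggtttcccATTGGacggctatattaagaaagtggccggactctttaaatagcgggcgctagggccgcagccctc
RND3: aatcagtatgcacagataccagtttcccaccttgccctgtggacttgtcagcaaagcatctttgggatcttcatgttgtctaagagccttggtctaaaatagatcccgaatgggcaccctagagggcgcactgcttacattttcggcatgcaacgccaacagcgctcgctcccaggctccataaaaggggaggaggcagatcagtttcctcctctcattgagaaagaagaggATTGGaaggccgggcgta
RASD1 held 2 matches to TGACG, at 133 to 129 and at 78 to 74 bases before the start, and 2 to GGGCGG. RHOB held 1 match to TGACG, on the opposite strand at 161 to 157 bases before the start, together with 2 to CCAAT and 2 to GGGCGG. RND3 held 1 match to CCAAT on the opposite strand. RefSeq gives RND3 a second start, whose stretch at chr2:150487668-150487917 held the same match, at 46 to 42 bases before that start, and 1 match to TATAAA at 30 to 25 bases before it, letters found in 10.7% of all stretches. Over 35116 promoter stretches of the same length, 21.2% held at least 1 match to TGACG, 42.6% to GGGCGG and 32% to CCAAT. The full cyclic AMP element, found in 1.65% of all stretches, the AP-1 letters, found in 4.2%, the E-box, found in 6.34%, and the glucocorticoid element, found in 0.00285%, had no match in these 3 stretches. Matches of letters are a description of the window and not of bound factors. The G and C share was 78% for RASD1, 68.8% for RHOB and 51.2% for RND3, against a median of 58% over all stretches.

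Array signals were read as the level of a probe, the log2 of its background-corrected signal over the 75th percentile of the array, so that a level of 0 means a signal at that percentile. The 75th percentile itself was 1177 to 1402 signal units on the 4 control arrays, 1041 to 1173 on the luteolin-labelled, 628 to 651 on the gefitinib-labelled and 540 to 865 on the combination-labelled arrays, and 63.4% to 70.4% of probes were well above background. The epithelial markers KRT8, KRT18, KRT19, EPCAM and CDH1 were above background on 10 of 10 arrays, and CTNNA1, which PC-3 cells are known to have lost, on 0 of 10. Of 7 markers of blood, stromal and endothelial cells, PTPRC, DCN and VWF were above background on 0 arrays and CD3E, PECAM1, COL1A1 and COL3A1 on 9 or 10. The summed signal of the 7, in units of the 75th percentile, was 0.331 to 0.506 on the control arrays and 0.278 to 0.63 on the drug-treated arrays, and its part in the results was not tested. Of the 7, CD3E rose by 1.25 and COL1A1 fell by 2.22 under the gefitinib label (limma adjusted p = 0.00329 and 0.000923), and COL1A1 fell by 1.54 under the combination label (limma adjusted p = 0.00613). Each array is a bulk sample, in which fewer cells that make an RNA cannot be told apart from less of that RNA in each cell.

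All 8 genes had probes, 11 in total, with 2 probes each for RASD1, RASD2 and RRAD. A probe entered the fit if both arrays of some group showed it well above background. That kept 9 probes of 6 genes. RND1 and DIRAS3 were not kept, and RHOB and the dimmer probes of RASD2 and RRAD were kept only through drug-treated groups in which they were high, so that their values against the controls are descriptions that support nothing further. The fit was limma across 28774 probes with Benjamini-Hochberg adjustment, 1 probe standing for each of 19717 genes, and a gene was called where the adjusted p was under 0.05 and the change reached 1 on the log2 scale. A departure from additivity, below, was called on the adjusted p alone.

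**Figure D1:**
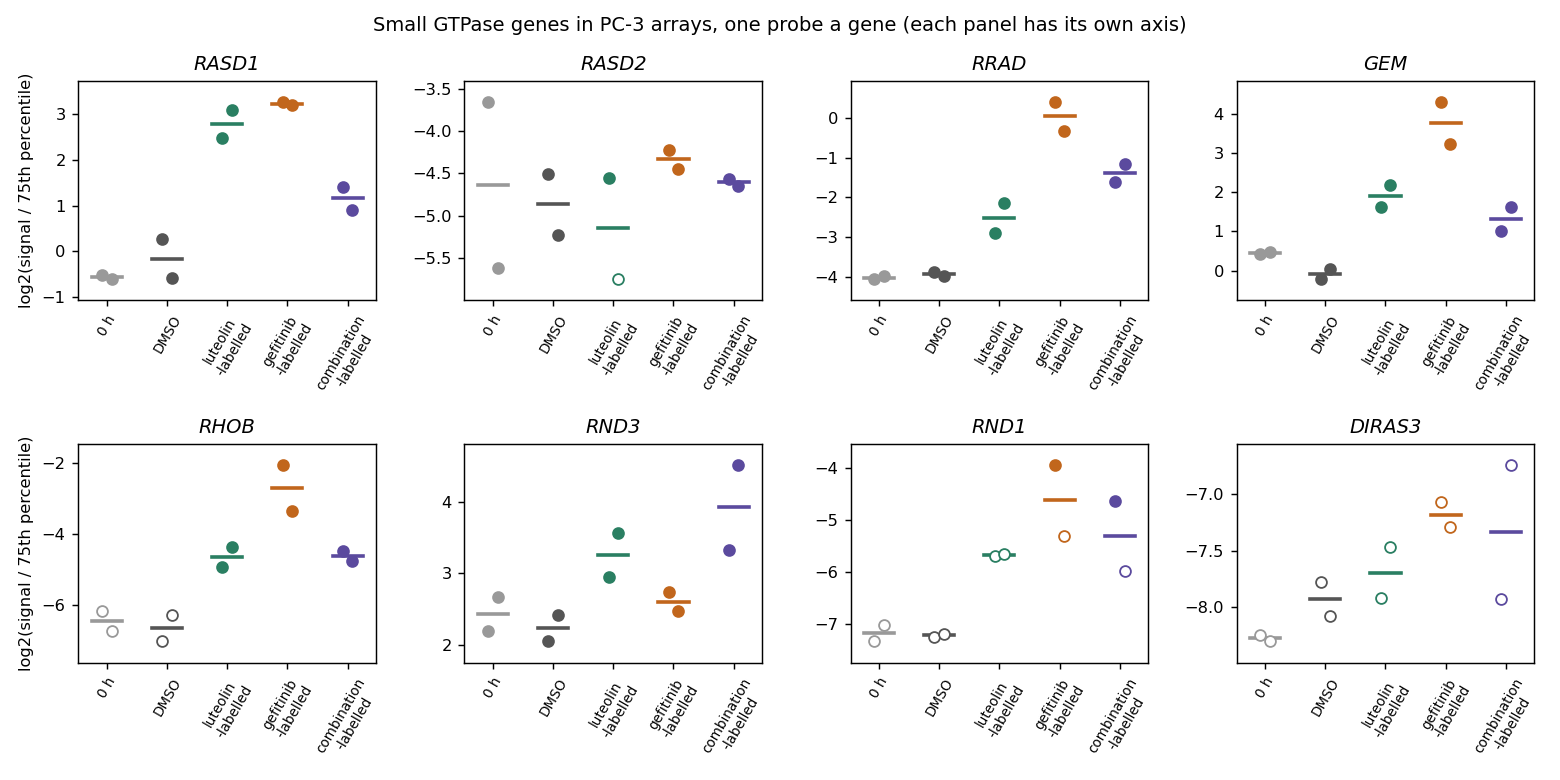
Level of 1 probe of each gene, as log2 of signal over the array's 75th percentile, on each of 10 arrays, with bars at the mean of 2 arrays. Filled points were well above background and open points were not. RASD1, RRAD, GEM and RHOB are highest on the gefitinib-labelled arrays, RND3 is highest on the combination-labelled arrays, and DIRAS3 has only open points.

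RASD1 had high signals on the luteolin- and gefitinib-labelled arrays and lower ones with the combination label. Its brighter probe, at chr17:17338512-17338571 of build hg18 on the minus strand, read 983 and 778 signal units at 0 h, 1619 and 860 with DMSO, 6481 and 8794 on the luteolin-labelled arrays, 6224 and 5768 on the gefitinib-labelled arrays and 2306 and 1017 on the combination-labelled arrays. All 4 single-drug arrays lay above every other array, and the lower combination-labelled signal lay below the higher DMSO signal until the arrays were scaled. In levels, the mean was -0.55 ± 0.06 at 0 h, -0.16 ± 0.59 with DMSO, 2.77 ± 0.43, 3.23 ± 0.04 and 1.17 ± 0.35 for the luteolin, gefitinib and combination labels (SD, n = 2). The 0 h and DMSO arrays overlapped, and the other groups did not overlap with each other or with them.

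Against DMSO, RASD1 was higher by 2.93 on the luteolin-labelled arrays, by 3.39 on the gefitinib-labelled arrays and by 1.32 on the combination-labelled arrays (log2, SE 0.31), or 7.62-, 10.45- and 2.50-fold. The second probe, at chr17:17339329-17339388 of hg18, was much dimmer, with 18.6 to 20.8 signal units at 0 h and 131 to 253 on the single-drug arrays. Its differences from DMSO were 3.06, 3.32 and 1.38. The 2 probes of RASD1 therefore gave the same order of the combination and single-drug groups, but the luteolin- and gefitinib-labelled arrays, kept apart by the brighter probe, overlapped on the dimmer one. DMSO cells differed from 0 h cells by 0.40 on the brighter probe, less than the SD of the DMSO arrays. On the dimmer probe they differed by 0.68 (SE 0.38), and there the 0 h and DMSO arrays did not overlap. The DMSO arrays had the highest SD on the brighter probe. On that probe, leaving out 1 array at a time moved the differences of RASD1 from DMSO within 2.51 to 3.35, 2.97 to 3.81 and 0.90 to 1.74 for the 3 labels.

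RASD2, the closest relative of RASD1, was dim on these arrays, and its probes disagreed. The brighter one, at chr22:34279556-34279615 of hg18 on the plus strand, read 111 and 24.0 signal units at 0 h, 59.5 and 34.2 with DMSO, 50.03 and 19.4 on the luteolin-labelled, 34.9 and 28.8 on the gefitinib-labelled and 36.6 and 21.6 on the combination-labelled arrays. Those levels overlapped between DMSO and both the luteolin and combination labels, and the differences of -0.28, 0.53 and 0.26 from DMSO did not pass (limma adjusted p = 0.773, 0.48 and 0.748). The dimmer probe, at chr22:34272917-34272976, was above background on the 4 single-drug arrays alone, with 24.7 to 32.6 units there. On it RASD2 was at least 1.63-fold above DMSO with the luteolin label and at least 2.40-fold with the gefitinib label (limma adjusted p = 0.0348 and 0.00333). Here and below, such bounds set the group below background at the lowest signal counted as above background on its arrays.

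GEM, one of the RGK calcium channel regulators, rose under each drug label and most under the gefitinib label. Its probe on chromosome 8 read 1878 and 1632 signal units at 0 h, 1173 and 1313 with DMSO, 3626 and 4750 on the luteolin-labelled, 12758 and 5913 on the gefitinib-labelled and 1733 and 1663 on the combination-labelled arrays. The gefitinib-labelled arrays were the highest and differed from each other by over 1 log2 unit, and none of these groups overlapped in level once the arrays were scaled. Against DMSO the differences were 1.99 with the luteolin, 3.85 with the gefitinib and 1.40 with the combination label (log2, SE 0.36, limma adjusted p = 0.00613, 0.000208 and 0.0177). The unscaled combination-labelled signals lay within the range of the 0 h signals, and against the 0 h arrays the combination label differed by 0.87 with an adjusted p of 0.0876, so that call depends on DMSO as the control. Adjusted p-values of that comparison ran from 0.00538 to 0.105 over the alternatives that keep the labels, the methods' t-test apart, and the highest came without the second combination-labelled array.

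RRAD, the other RGK member measured, rose under each drug label as well. The brighter probe, at chr16:65513130-65513189 of hg18 on the minus strand, read 85.0 and 74.3 signal units at 0 h and 91.9 and 81.4 with DMSO. On the drug-treated arrays it read 157 and 237 with the luteolin label, 853 and 502 with the gefitinib label and 283 and 241 with the combination label. The 4 control arrays were close together, and each drug label had a range of its own above them. The rises were 1.41, 3.96 and 2.54 under the luteolin, gefitinib and combination labels (log2, SE 0.31, limma adjusted p = 0.0133, 0.00011 and 0.00137). The second probe, at chr16:65513676-65513735, was below background on all 4 control arrays. It was at least 12.6-fold above DMSO with the gefitinib label and at least 4.71-fold with the combination label (limma adjusted p = 0.000667 and 0.00443), and its luteolin-labelled value of at least 1.55-fold did not pass (limma adjusted p = 0.057).

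RHOB, the endosomal GTPase, was below background in every control array and above it in every drug-treated array. Its single probe, at chr2:20511239-20511298 of hg18 on the plus strand, read 19.3 and 11.0 signal units at 0 h and 10.3 and 16.4 with DMSO. With drug it read 38.4 and 50.04 on the luteolin-labelled, 155 and 60.7 on the gefitinib-labelled and 38.6 and 19.8 on the combination-labelled arrays. RHOB was thus at least 2.21-fold, 8.46-fold and 2.25-fold above DMSO under the luteolin, gefitinib and combination labels (limma adjusted p = 0.0132, 0.000434 and 0.00953). The luteolin- and combination-labelled arrays overlapped, with a difference of 0.03. Over the alternatives that keep the labels, the fitted differences from DMSO ran from 0.72 to 2.38 with the luteolin and from 1.10 to 2.41 with the combination label. Unscaled, the second combination-labelled signal of 19.8 lay close to the first 0 h signal of 19.3, so their distance in level rests on the scaling of the arrays. All of these signals are dim, and since the probe passed the background filter only where it was high, its calls add nothing to a count of the group.

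RND3, which opposes RHOA, rose under the combination label and had another order of groups. Its probe, at chr2:151033353-151033412 of hg18 on the minus strand, had 10 spots on each array. It read 6383 and 7468 signal units at 0 h, 5575 and 6820 with DMSO, 9099 and 12303 on the luteolin-labelled, 4346 and 3484 on the gefitinib-labelled and 8685 and 12409 on the combination-labelled arrays. The SD among the spots of 1 array was 0.05 to 0.09 on the log2 scale, while that between the 2 arrays of a group was 0.19 to 0.84, so the spread lay mainly between arrays. In level the combination- and luteolin-labelled arrays overlapped, and both lay above all DMSO and 0 h arrays. The rise was 1.70 under the combination label (log2, SE 0.39, limma adjusted p = 0.0115). Its differences of 1.03 under the luteolin label and 0.38 under the gefitinib label did not pass (adjusted p = 0.0876 and 0.435). Unscaled, the gefitinib-labelled signals were below those of DMSO, and quantile normalization brought that difference to 0.07, so its sign rests on the scaling of the arrays. The luteolin-labelled difference was called under some alternatives, such as the slide as a block (1.03, adjusted p = 0.027) and quantile normalization (1.13, adjusted p = 0.0372), and its adjusted p-values ran from 0.027 to 0.38 over the alternatives that keep the labels, the methods' t-test apart.

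RND1 and DIRAS3 were near or below background. RND1, the relative of RND3, read 8.71 and 9.11 signal units at 0 h, 8.88 and 8.84 with DMSO, 22.7 and 20.8 on the luteolin-labelled, 42.6 and 16.0 on the gefitinib-labelled and 35.0 and 8.53 on the combination-labelled arrays. Only the first gefitinib- and the first combination-labelled array were above background. The second combination-labelled signal lay below all 4 control signals before scaling, so its higher level on that array comes from the scaling. DIRAS3 read 3.54 to 6.16 units and was above background on 0 of 10 arrays, so no level can be given for it.

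**Figure D2:**
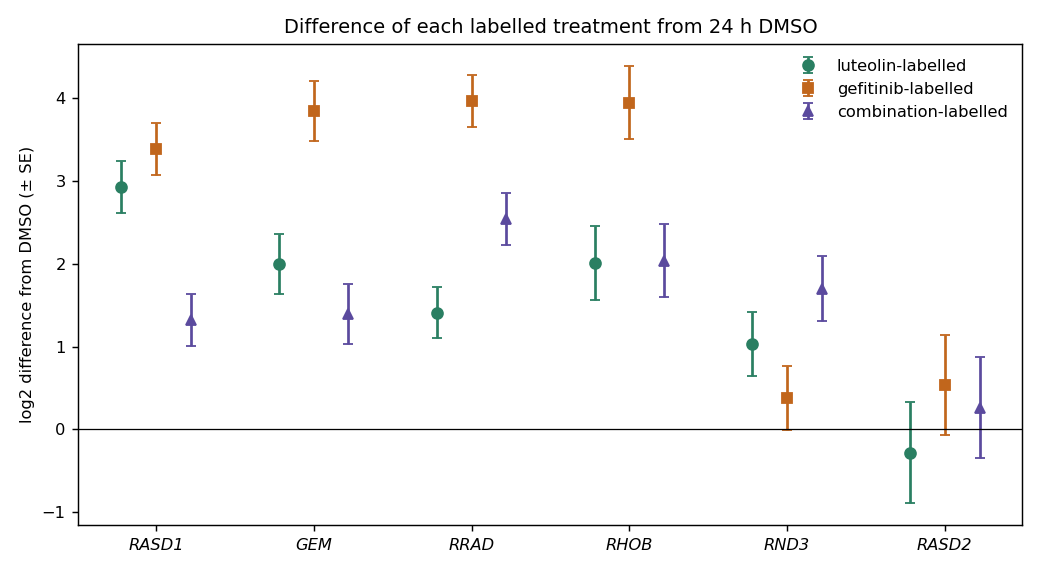
Difference in level (log2) of the 6 genes in the fit from DMSO at 24 h for the luteolin-, gefitinib- and combination-labelled arrays, as fitted value with its SE from 2 arrays a group. GEM, RRAD and RHOB have their highest point at the gefitinib label, RND3 has its highest at the combination label, and the RHOB values are fitted against DMSO signals below background.

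Counted together, GEM, RHOB and RRAD were raised under the luteolin label and under the gefitinib label, and RND3 joined them under the combination label. That is 3, 3 and 4 of the 5 tested genes other than RASD1, and none was lowered. Over all genes tested, 7.22% were raised and 6.17% lowered under the luteolin label, 15.6% and 14.3% under the gefitinib label and 12.1% and 7.69% under the combination label. The median of the 5 genes was 1.41, 3.85 and 1.70 for the 3 labels, against 0.08, 0.22 and 0.16 over all genes. Since RHOB entered only through the groups where it was high, the count and the median describe these genes and support nothing further. Quantile normalization turned the split over all genes to 2057 raised and 3039 lowered under the gefitinib label and to 1693 and 1999 under the combination label, from 3081 and 2814 and from 2386 and 1517. The 3 comparisons share their DMSO arrays. Between DMSO and 0 h, limma called 0 of the 5 genes, with 0 at an unadjusted p under 0.05, where 0.0355% of all genes were called.

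Some of these calls rest on single arrays. Every call under the gefitinib label held with any 1 array left out. Under the luteolin label the count fell from 3 to 1 without the first DMSO array and to 0 without the second luteolin-labelled array, and under the combination label from 4 to 1 without the first DMSO array and to 2 without the second combination-labelled array. The arrays sat on 3 slides, and the differences from DMSO on the same slide had the sign of the pooled value for RASD1, GEM, RRAD, RHOB and RND3 wherever a slide held both groups. For RASD1 they were 2.20 and 3.65 with the luteolin label, 3.00 with the gefitinib label and 1.15 and 1.49 with the combination label.

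The next question was whether the drugs differed from each other. By the labels, GEM, RRAD and RHOB were lower with luteolin than with gefitinib, by differences of -1.85, -2.55 and -1.94 (limma adjusted p = 0.00291, 0.000342 and 0.00605), in a comparison that called 36.6% of all genes. The combination label was below the gefitinib label in the same 3 genes, at -2.45 for GEM, -1.42 for RRAD and -1.91 for RHOB (limma adjusted p = 0.00102, 0.00654 and 0.00851), and above it for RND3 at 1.32 (limma adjusted p = 0.0236), where 27.0% of all genes were called. Against the luteolin label the combination label was higher in RRAD alone, by 1.13 (limma adjusted p = 0.0211), where 21.0% of all genes were called. For RASD1 the combination label differed by -1.61 from the luteolin label and by -2.06 from the gefitinib label, as a description.

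The combination was then set against the sum of both drugs on the log2 scale, with 0 for a purely additive outcome. By the labels the departure was -4.99 for RASD1 (SE 0.44), which is the value it was chosen for, and -5.01 on its second probe. GEM departed by -4.44, RRAD by -2.83 and RHOB by -3.92 (limma adjusted p = 0.000717, 0.0023 and 0.00258), and RND3 by 0.29 and RASD2 by 0.01 did not pass (adjusted p = 0.704 and 0.993). These are 3 called of 5, where 34.2% of all genes were called, and RHOB adds nothing to that count, which leaves GEM and RRAD.

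Under the file names the picture was another one. The departure became -0.87 for RASD1, 0.46 for GEM, 0.01 for RRAD and -0.10 for RHOB (SE 0.44, 0.51, 0.44 and 0.63), and the last 3 of these did not pass (limma adjusted p = 0.507, 0.986 and 0.916). RND3 departed by -2.35 instead (SE 0.55, limma adjusted p = 0.00922). Between single drugs, the call was lost in GEM at -0.60 and in RHOB at 0.03 (limma adjusted p = 0.21 and 0.962). RRAD was instead higher with luteolin than with gefitinib, by 1.13 (limma adjusted p = 0.0211). The combination stood above luteolin in RHOB by 1.91 and in RRAD by 1.42 (limma adjusted p = 0.00851 and 0.00654). Read in this way, RASD1 was 2.93 above DMSO with gefitinib, 3.39 with both drugs and 1.32 with luteolin, and GEM, RRAD and RHOB were highest with both drugs. Whether a gene was raised by some drug did not depend on the reading, since the 3 groups keep their arrays and only exchange names.

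**Figure D3:**
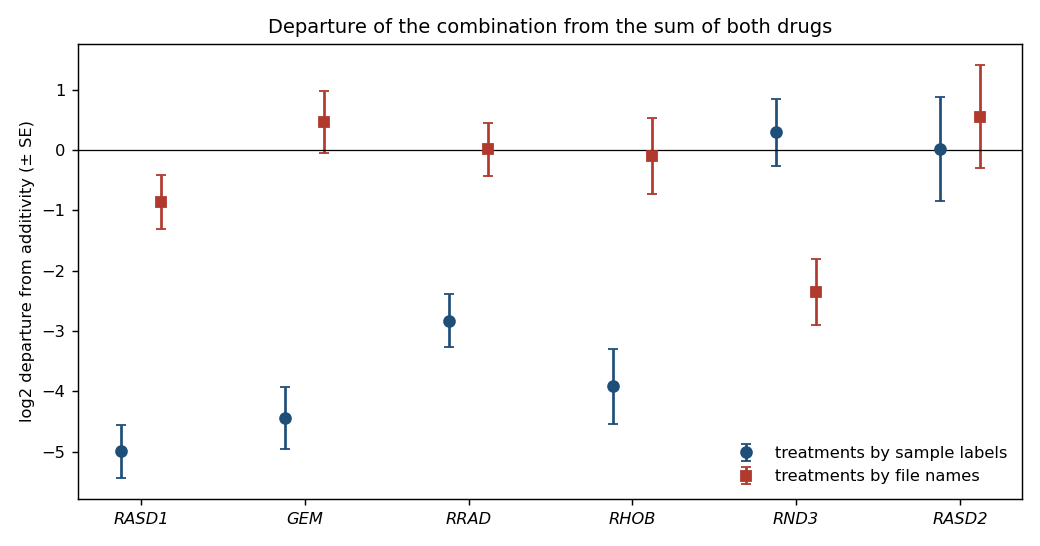
Departure of the combination from the sum of luteolin and gefitinib (log2, with SE) for 6 genes, with the treatments taken from the sample labels (circles) and from the file names (squares); 0 is additive. RASD1, GEM, RRAD and RHOB lie between -4.99 and -2.83 by the labels and between -0.87 and 0.46 by the file names, and RND3 moves the other way.

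The genes whose profile over the 10 arrays was nearest to that of RASD1 were NR4A2, HSPA6, KLF2, CXCL2 and GPCPD1. Nearness was the mean absolute difference in level after each gene was centred on its own mean, over 16262 genes above background on all arrays, and it was 0.31, 0.37, 0.42, 0.56 and 0.56 log2 units. NR4A2 is an orphan nuclear receptor and KLF2 a Krüppel-like transcription factor, and their differences from DMSO were 2.93, 3.80 and 1.87 for NR4A2 and 3.17, 2.95 and 0.96 for KLF2 under the luteolin, gefitinib and combination labels. HSPA6, a stress-inducible heat shock protein, had 2.67, 2.89 and 0.54. CXCL2 had 1.67, 2.79 and 1.84, and GPCPD1 had 2.13, 3.69 and 2.16. In CXCL2 and GPCPD1 the combination label was therefore not below the luteolin label, unlike in RASD1. Among the other small GTPases GEM ranked 21 at 0.69 and RRAD 29 at 0.75, and RND3 ranked 6799 at 1.33. RASD1 chose these genes, so their closeness is a description, and all points share the same 10 arrays.

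**Figure D4:**
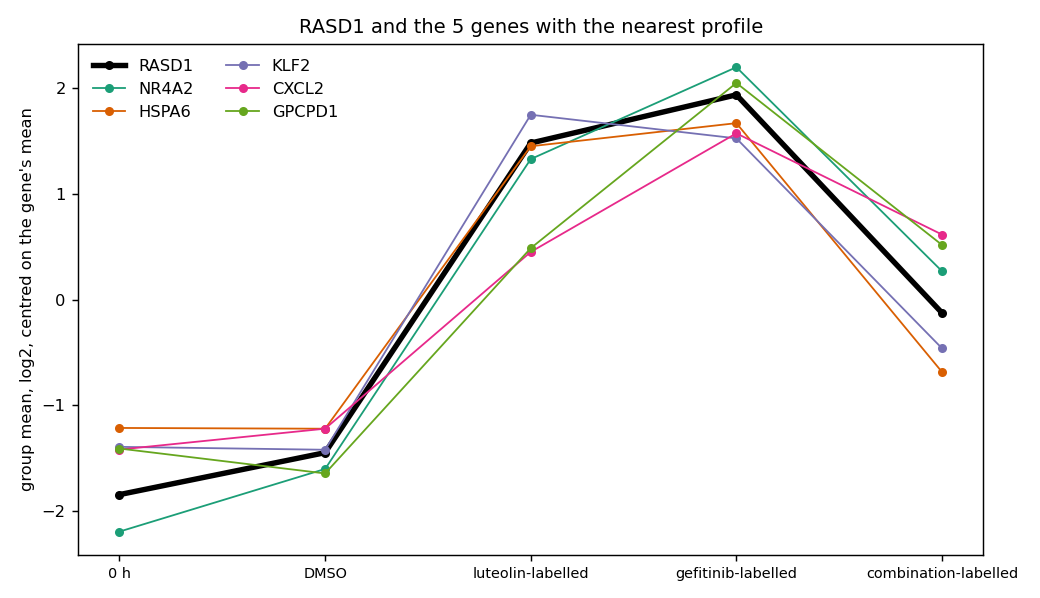
Group means (log2, n = 2 arrays) of RASD1 and of the 5 genes nearest to it over the 10 arrays, each centred on the mean of its 5 group means. All 6 lines are low at 0 h and with DMSO and lower with the combination label than with the gefitinib label. CXCL2 and GPCPD1 are not lower with the combination label than with the luteolin label, while the other lines are.

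Close relatives of these genes gave 0 calls under the luteolin label and 1 each under the gefitinib and combination labels. Of 7 listed, RHOA, RHOC, RND2 and DIRAS1 were tested, and REM1, REM2 and DIRAS2 were not. The calls were RHOA under the gefitinib label, at 1.10, and RND2, the third RND protein, under the combination label, at 1.66 (limma adjusted p = 0.00295 and 0.00471). That is 1 of 4, or 25%, under each of these labels, where 15.6% and 12.1% of all genes were raised. RND2 levels were -4.34 and -4.29 with DMSO and -3.03 and -2.30 with the combination label. RHOC, the remaining close relative of RHOB, missed the minimum change, with 0.97 under the gefitinib label (limma adjusted p = 0.00472).

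Among 14 further tested GTPases related to RHOB, of the RAC, CDC42 and RHOBTB kinds and others, 1, 2 and 0 were raised and 0, 3 and 2 lowered under the luteolin, gefitinib and combination labels. RHOH, a GTPase-deficient protein known from blood cells, was above background on the luteolin-labelled arrays alone, with levels of -3.14 and -3.15, and was at least 6.31-fold above DMSO there (limma adjusted p = 0.000537). RHOV fell by 1.88 and RHOBTB1 by 1.46 under the gefitinib label, and RHOBTB3 fell by 1.49 under the combination label. RAC1 and RAC2 were the raised pair under the gefitinib label, RHOBTB2 was the other lowered gene there, and RHOU the other under the combination label.

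In the wider Ras family 24 genes were tested, of which 2, 2 and 3 were raised and 2, 3 and 1 lowered under the luteolin, gefitinib and combination labels. The raised shares were 8.33%, 8.33% and 12.5%, near or below the 7.22%, 15.6% and 12.1% of all genes, and with 1 array left out the genes called in either direction ran from 1 to 5 under the luteolin label and from 1 to 4 under the combination label. RASL10A rose by 2.68 under the combination label, with levels of -4.31 and -4.82 with DMSO and -1.82 and -1.95 with the combination label (limma adjusted p = 0.00194). RHEBL1, a relative of the mTOR activator RHEB, fell by 2.92 under the gefitinib label, from -1.23 and -1.25 with DMSO to -3.73 and -4.60 (limma adjusted p = 0.00019). RASL10B under the luteolin label and RASL11B under the gefitinib label were lower than DMSO by at least 1.91-fold and at least 1.09-fold (limma adjusted p = 0.0117 and 0.00808). The other raised genes were RAP2A and RRAS under the luteolin, RRAS2 under the gefitinib and NRAS and RASL11B under the combination label. RASL11B was lowered under the luteolin label too, and NKIRAS1 was lowered under the gefitinib and RASL11A under the combination label.

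Effectors of RHOA and its relatives and partners of the RND proteins, 19 tested, were raised in 0, 3 and 1 cases and lowered in 3, 2 and 4 under the luteolin, gefitinib and combination labels. The lowered shares were 15.8% under the luteolin and 21.1% under the combination label, where 6.17% and 7.69% of all genes were lowered, and the 2 of 19 under the gefitinib label stood against 14.3%. Under the combination label the genes called in either direction ran from 4 to 8 with 1 array left out. DIAPH3, an actin-nucleating formin, fell by 2.15, and CIT, the citron kinase of cytokinesis, by 1.76 under the luteolin label (limma adjusted p = 0.00097 and 0.000944). CIT levels were 2.67 and 2.46 with DMSO and 1.05 and 0.56 with the luteolin label. FLRT3, a membrane partner of RND proteins, fell by 1.39 and UBXN11, which binds RND proteins, rose by 1.37 under the gefitinib label. The list median lay at -0.05, 0.03 and -0.14, below the median of all genes under each label. ROCK1, the kinase that RND3 and GEM inhibit, was not called, and ROCK2 was lowered under the combination label, as were CIT, DIAPH2 and PKN3. PKN3 was lowered under the luteolin label too, PKN2 and RHPN1 were raised and RHPN2 lowered under the gefitinib label, and UBXN11 was raised under the combination label.

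Partners of the RGK and RASD proteins gave few calls against DMSO, where a call needed a change of at least 1. Of 15 tested, 1, 0 and 0 were raised and none lowered, and the 1 was CACNB1, a calcium channel beta subunit, at 1.09 under the luteolin label (limma adjusted p = 0.00426). The enzymes that attach and trim the lipid anchor of small GTPases, 10 tested, gave 1 call, RCE1, which trims the end of prenylated proteins and fell by 1.24 under the gefitinib label (limma adjusted p = 0.00252). Against DMSO, neither set was called beyond the share of all genes under any label. By the labels, the departure from additivity was called above 0 in 1 of the 15 partners and below 0 in 6. Over all 19717 genes it was called above 0 in 3532 and below 0 in 3214, or in 34.2%. The median departure of the partners was -0.57, against -0.16 over all genes.

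RASD1 takes its name from glucocorticoid induction, and 12 genes tied to the glucocorticoid response were therefore read beside it. The gene of the glucocorticoid receptor itself, NR3C1, was counted among the 12. The 12 were raised in 3, 4 and 6 cases and lowered in 1 case each under the luteolin, gefitinib and combination labels. Their medians were 0.71, 0.79 and 1.14, against 0.08, 0.22 and 0.16 over all genes. The raised share was 25%, 33.3% and 50% of the 12, where 7.22%, 15.6% and 12.1% of all genes were raised. With 1 array left out, the genes called in either direction ran from 2 to 5, from 3 to 6 and from 4 to 7. NFKBIA, the NF-κB inhibitor, rose by 1.89 and PER1, a clock gene, by 1.85 under the gefitinib label (limma adjusted p = 0.000575 and 0.00794), and DUSP1, a MAP kinase phosphatase, by 1.81 under the combination label (limma adjusted p = 0.0052). SGK1, a kinase strongly induced by glucocorticoids, fell by 2.09 under the gefitinib label (limma adjusted p = 0.00433), and FKBP5 was the gene lowered under the other labels.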

How the data were processed

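Total RNA of PC-3 cells was hybridised by the authors to Agilent Whole Human Genome 4x44K arrays. The deposited intensities are the processed signals of Agilent Feature Extraction (10.7.3.1 per the file headers), background-subtracted and not normalized between arrays. The series' deposited table repeated these intensities in all 45015 spots of each array within a relative 1e-04, and 0 columns were left unused. Control and outlier spots were left out, spots of a probe were averaged as log2 signal relative to the 75th percentile, and a probe counted as above background where at least 50% of its spots did. The probe with the highest mean stood for a gene, and 23958 of 41000 probes were named through RefSeq accessions. Groups came from the labels. All 5 groups entered 1 fit in limma 3.58.1 (R 4.3.3), with 5 residual and 3.36 prior degrees of freedom. Probe positions are those of the files in hg18, where gene parts were not annotated here. The number of arrays limits the precision.

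The genes and lists were chosen with earlier results of these data known. All 8 genes and their probes were named. From each other list up to 4 called genes with the largest change were named, and genes named beyond that were chosen after their values were seen. Alternatives were normexp (offset 50), quantile normalization, 2 other filters, the table of values, replicate and slide blocks, the groups compared alone, file-name treatments, 0 h as control, no minimum fold, the median over probes, the methods' t-test, each array left out and, added after seeing the data, median centring. The fit was tested on simulated data. Some of the marker genes on the arrays are not reported here.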

Additional observations from a re-analysis of the deposited data

Results flagged for a closer look

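3 of the 5 tested genes other than RASD1 departed from the sum of both drugs by the labels, in the test of the interaction over 2 arrays a group. Over all genes, 34.2% were called in that test. On the log2 scale GEM departed by -4.44 (SE 0.51), RHOB by -3.92 (SE 0.63) and RRAD by -2.83 (SE 0.44), with limma adjusted p of 0.000717, 0.00258 and 0.0023. For RHOB the DMSO arrays that enter the departure were below background, so its size is a fitted value. RHOB was also kept only through drug-treated groups in which it was high, so it adds nothing to the count. Under the file names the same departures were 0.46, -0.10 and 0.01.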

How the results depend on the processing

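Over all alternatives, 832 of the values of single genes other than RASD1 kept their direction and side of the threshold, 61 lost a call, 10 gained one and 11 changed sign with a call on either side. The sign changes all came from the file names. By these, RHOB and RRAD differed by 0.0296 and 1.13 between luteolin and gefitinib, the combination differed from luteolin by 2.06 in RASD1, -1.32 in RND3 and 2.45 in GEM and from gefitinib by 0.46 in RASD1, 1.94 in RHOB, -0.65 in RND3, 2.55 in RRAD and 1.85 in GEM, and the departures were -2.35 for RND3, 0.0125 for RRAD and 0.46 for GEM. Counts of called genes became 1 for luteolin against gefitinib, 4 for the combination against luteolin and 1 for the departure. Normexp background correction left 1 call under the luteolin label and 0 between the combination and luteolin labels. The methods' t-test, unadjusted, called 0, 0 and 1 of the genes for the luteolin, gefitinib and combination labels against DMSO, 0 and 0 for luteolin against gefitinib and the combination against luteolin and 1 for the combination against gefitinib, and after Benjamini-Hochberg adjustment 0 in each. With 1 array left out, the counts ranged from 0 to 4 (luteolin against DMSO), 3 to 3 (gefitinib), 1 to 4 (combination), 0 to 2 (combination against luteolin) and 3 to 4 (combination against gefitinib). Between groups, deviations of arrays with equal replicate numbers correlated at -0.10 to 0.29, with 6 of 10 pairs of groups over 0.1. Replicate numbers largely followed the slides. Slide 2 held the first arrays of DMSO and of the 3 drug labels. Slide 3 held the second arrays of 0 h, DMSO and the luteolin and combination labels. Whether equal numbers mark paired arrays was not tested. The replicate block called 4, 3 and 4 genes against DMSO, where the fit without it called 3, 3 and 4. The cause of these changes was not tested. RHOB, RND1, DIRAS3 and the dimmer probes of RASD2 and RRAD are limited by their signal over background.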
